A study of Drosophila melanogaster with 4 samples.

Results

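KDM4A-enriched regions of the X chromosome are described here. They are all rows for X in the authors' list for the replicate set, apart from 1 region of depletion, and number 1720 of the 8653 enriched regions in that list. The measurements came from chromatin immunoprecipitation and sequencing (ChIP-seq) of nuclei from adult fly heads of the wild-type strain Oregon-R, with the antibody Q2541 against KDM4A (JMJD2A). The study had 2 ChIP samples, called replicates 1 and 2. Each had its own input, sheared chromatin without immunoprecipitation. The samples shared strain, genotype and stage. The stage is labelled Mixed Adult, and the sex of the flies and the cell types of the head were not separated.

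KDM4A is a demethylase of histone H3 that takes methyl groups off lysine 36 and, in mammals, also off lysine 9. In flies it associates with the heterochromatin protein HP1a. The X chromosome is a special case in Drosophila because males carry a single copy, whose active genes are transcribed at a raised rate with the help of the male-specific lethal (MSL) complex. That complex recognises methylation of lysine 36 of histone H3 over gene bodies. None of these proteins or marks other than KDM4A was measured here.

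Each value below is a property of a called region: its position, its width, or the single score that the authors gave it. The scale of the score is not stated, so scores are compared by difference and rank. Positions are of FlyBase release 5. Regions carry no gene names, because no genome or annotation of release 5 was at hand. The number of reads behind a region is unknown. All 4 large autosomal arms, 2L, 2R, 3L and 3R, were measured in the same way as a background. With only 2 ChIP samples of 1 group, an exact sign-flip test over samples cannot go below p = 0.5. Differences between X and the arms are therefore given as values in both replicate lists, without a test. The labels do not say whether separate batches of flies were used for the replicates, so the spread between them may be technical.

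X was one of the most densely marked arms in the replicate-set list. It held 76.7 regions per Mb over its 22.4 Mb, close to the 77.2 of 2R and above the 60.3 of 2L, 67.4 of 3L and 64.9 of 3R. The covered share of X, 21.1%, lay inside the range of the arms, of which 2L had the lowest share, 19.5%, and 2R the highest. Replicate 1 held 1305 regions on X over 3.74 Mb, or 16.7% of its length. Replicate 2 held 1126 regions over 3.02 Mb, or 13.5%. The mean of the replicates was 15.1 ± 2.28% covered (SD, n = 2) and 54.2 ± 5.64 regions per Mb (SD, n = 2). The place of X among the arms depended on the replicate. Its density in replicate 1, 58.2 regions per Mb, was exceeded only by that of 2R (61.1). In replicate 2 the density of X was 50.2 per Mb, below every autosomal arm (54.9 to 71.7). Its covered share in replicate 1 was exceeded only by that of 2R (18.7%), with 3R at 16.7% as well, and in replicate 2 it was the lowest, where the autosomal arms ran from 16.6% to 22.3%.

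Regions on X were seldom broad. Of the 1720 regions, 46 spanned 8 kb or more, which was 2.67% (95% Wilson interval 2.01 to 3.55%). On the autosomal arms the same share ran from 5.02% on 3L to 6.79% on 3R. In replicate 1 it was 1.38% on X, against 1.89% on 3L and 2.78 to 3.46% on the other arms. In replicate 2 it was 0.888% on X and 4.46 to 4.82% on the arms. X thus had the lowest share of broad regions in each of the 3 lists, although its Wilson interval in replicate 1, 0.874 to 2.17%, overlapped those of 3L, 1.28 to 2.80%, and 2R, 2.02 to 3.83%. Intervals here cover the counting of regions only, and neighbouring regions are not independent.

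In the replicate set X widths were below those of every arm at each percentile examined, by most bp in the upper part of the distribution. The median X region of the replicate set was 2097 bp wide, against 2115 to 2221 bp on the arms, and the lower quartile was 1408 bp, against 1446 to 1540 bp. The upper quartile was 3295 bp on X and 3482 to 3920 bp on the arms. The 95th percentile was 6722 bp on X and 7950 to 8935 bp on the arms. In replicate 2 the median on X, 2239 bp, was above that of every arm (2171 to 2232 bp), whereas the 95th percentile, 5590 bp, was below every arm (7677 to 7926 bp). In replicate 1 the median was 2382 bp on X against 2404.5 to 2518 bp on the arms. The 95th percentile there was 5853 bp on X against 6405 to 7128 bp on the arms. Regions of 8 kb or more made up 10.6% of the covered sequence of X, and 18.6 to 25.3% of that of the arms. No X region of replicate 2 reached 12 kb, while 7 to 23 regions did on each arm. In replicate 1, 3 X regions did, against 1 on 2R and 5 to 11 on the other arms.

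Most of the broad X regions were called as several shorter ones in the replicates, as were broad regions of the arms. The widest region held by both replicates, 15951 bp at 14955874 to 14971824, scored 1.58 and held 2 regions of replicate 1 and 3 of replicate 2. The next, 15907 bp at 12794168 to 12810074, scored 1.87 and also held 2 and 3 replicate regions. One of 15356 bp at 18538248 to 18553603 scored 1.91 and held 3 regions of replicate 1 and 4 of replicate 2. The other two of the 5 widest spanned 14805 bp at 11462942 to 11477746 (score 1.77) and 14772 bp at 21233001 to 21247772 (score 1.54). Each of the 46 broad X regions overlapped both replicates, as did each of the 403 on the arms. Replicate 1 divided 29 of the X regions (63.0%) into 2 or more, against 64.9 to 71.8% on the arms. Replicate 2 divided 36 (78.3%), against 51.8 to 59.3% on the arms. Replicate 1 covered a median of 88.9% and replicate 2 a median of 78.7% of their length. On the arms this order was turned on 2L, 2R and 3R, where replicate 2 covered a median of 91.6 to 94.0% and replicate 1 a median of 84.5 to 87.7%, and the medians of 3L were 91.0% for replicate 1 and 90.4% for replicate 2. Broad X regions had a median score of 1.58, ranging from 0.89 to 2.13, against medians of 1.29 to 1.38 for the broad regions of each arm. They lay along the whole of X, with 6 in the first 5 Mb, 16 between 5 and 10 Mb, 9 between 10 and 15 Mb, 12 between 15 and 20 Mb and 3 beyond 20 Mb. The limit of 8 kb fell in a continuous range of widths. The narrowest X regions above it were 8060 and 8061 bp wide and the widest below it 7994 and 7888 bp.

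**Figure D1:**
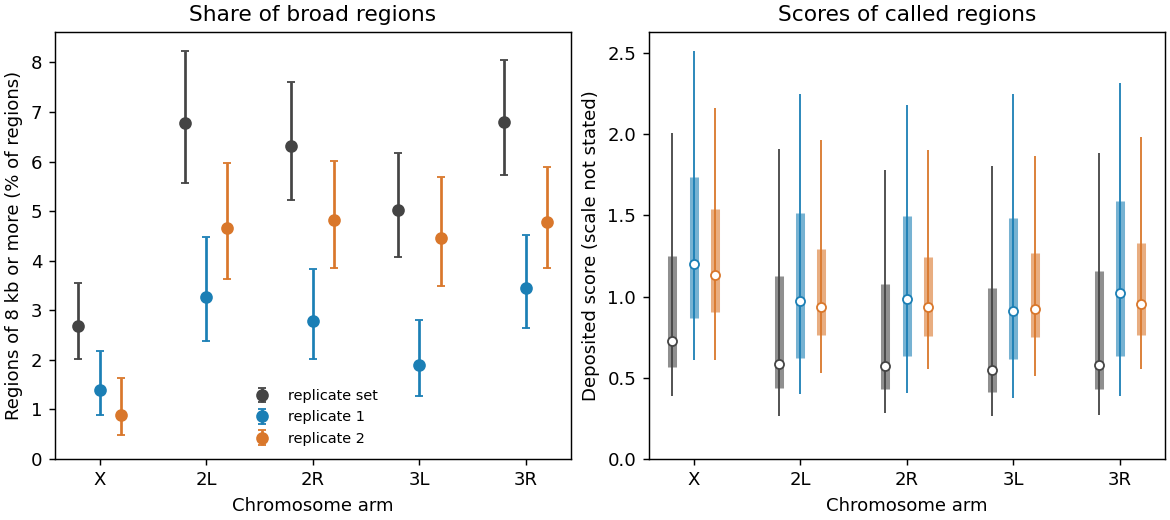
Left, share of regions of 8 kb or more (percent of regions, bars are 95% Wilson intervals that cover counting only) on X and on each large autosomal arm, in the list of the replicate set and of each replicate. Right, deposited scores of the called regions, with the median as an open circle, the quartiles as a thick bar and the 5th to 95th percentile as a thin line. X has the lowest share of broad regions in each list, 2.67% in the replicate set, and the highest 5th percentile, quartiles, median and 95th percentile of score.

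Scores of called X regions were higher than those of the arms at each percentile examined, from the 5th to the 95th. In the replicate-set list the 5th percentile of the score was 0.39 on X and 0.26 to 0.28 on the arms. The median was 0.73 on X against 0.55 to 0.59, and the 95th percentile was 2.01 against 1.78 to 1.91. In replicate 1 the 5th percentile was 0.61 on X against 0.37 to 0.41, and in replicate 2 it was 0.61 against 0.51 to 0.55. The gap between X and the nearest arm in replicate 1 was 0.20 at the 5th percentile and 0.20 at the 95th, and in replicate 2 it was 0.058 at the 5th percentile and 0.18 at the 95th. Low scores were correspondingly scarce on X. In the replicate set 267 X regions, or 15.5%, scored below 0.5, against 39.9% of the regions of the 4 arms. X held 62 of the 1000 lowest-scored regions of the whole replicate-set list (6.20%) and 251 of the 1000 highest-scored (25.1%), with 19.9% of all regions. In replicate 1 those shares were 4.90% and 27.1%, with 19.6% of all its regions on X. In replicate 2 they were 9.30% and 23.4%, with 15.3% of all its regions on X. Scores exist for called sequence only, so a shift of the lowest score that could be called and a shift of enrichment cannot be told apart in these lists.

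Score and width went together on X. Regions of 1 to 1.5 kb had a median score of 0.61 and those of 1.5 to 3 kb one of 0.66. The median was 1.23 for 3 to 5 kb, 1.40 for 5 to 8 kb and 1.58 for 8 kb or more. In each of these classes the X median was above that of the 4 arms pooled, which were 0.45, 0.49, 1.03, 1.25 and 1.35. Higher scores on X therefore accompanied a lower share of broad regions. As a description over 1720 regions, the Spearman rho of width and score was 0.63 on X and 0.66 to 0.71 on the arms. Regions are not independent, and a wide region can hold a stronger summit.

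The strongest X regions were wider than the X median of 2097 bp but were not among the broad ones. The highest score in the list, 3.72, belonged to a region of 2598 bp whose position, 5417240 to 5419837, made it the 621st widest of X. It scored 3.95 in replicate 1 and 3.46 in replicate 2. The 10 highest-scored X regions held by both replicates were 2454 to 5966 bp wide, 8 of them under 4 kb, and all overlapped exactly 1 region in each replicate. Below the strongest came 17041049 to 17044476 (score 3.23) and 5630836 to 5633289 (score 2.98). The order continued with a region of 5966 bp at 1290837 to 1296802 (score 2.71). The region at 12355954 to 12358695 (score 2.69) differed most between the replicates, with 3.50 in replicate 1 and 1.88 in replicate 2. A region at 18675954 to 18678981 scored 2.69, with 2.99 in replicate 1 and 2.46 in replicate 2. The replicates were closer for the region at 12476071 to 12479228 (score 2.66), with 2.74 and 2.82. At 651422 to 654789 (score 2.66) they were 2.89 and 2.62. At 9446551 to 9451660 (score 2.65) replicate 2 was the higher, with 2.87 against 2.64. The last of the 10 lay at 1405764 to 1408458 (score 2.64), with 2.79 in replicate 1 and 2.61 in replicate 2. Replicate 1 had the higher score in 8 of these 10 regions.

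Regions on X were closely spaced, with long unmarked stretches between groups. The median gap from the end of a region to the start of the next was 3206 bp, shorter than on each arm (3393 to 3808 bp), and the quartiles were 1002 and 9426 bp. In replicate 1 the median gap of X was 4580 bp, inside the range of the arms (4478 to 5240 bp). In replicate 2 it was 4772 bp, again inside the range (4084 to 4930 bp). The short median gap of the replicate-set list therefore did not hold in either replicate alone. Of the X regions, 1035 (60.2%) lay 2 kb or less from a neighbour, and the arms ran from 57.1% to 60.9%. At the other end, 89 X regions (5.17%) had no neighbour within 20 kb, inside the 3.92 to 7.79% of the arms.

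When regions 2 kb or less apart were joined, X held 363 chains of 2 or more regions and 685 regions that stood alone. Of the chains, 34 held 5 or more regions, together 205 regions and 14.7% of the covered sequence of X. The arms had 27 to 36 such chains. In replicate 1 X had 10 of them and the arms 8 to 19. In replicate 2 X had 9, fewer than every arm (10 to 30). In the replicate set, the X chain with most regions joined 10 regions over 35.1 kb at 10649158 to 10684225, of which 84.5% was covered. It overlapped 7 regions of replicate 1 and 5 of replicate 2. Next were 2 chains of 9 regions, at 6230869 to 6268208 (37.3 kb) and at 11218146 to 11256555 (38.4 kb). Both chains of 8 regions among the top 5 lay at 5210220 to 5235045 (24.8 kb) and at 8972211 to 9010391 (38.2 kb). The chain at 5210220 contained the strongest region of the 5 chains, with a score of 2.62. Each replicate covered between 49.9% and 74.2% of each of these 5 chains.

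The regions standing alone had a median score of 0.68 and a median width of 1843 bp, and 37.4% of them overlapped both replicates. In chains of 2, 3, 4 and 5 or more regions, the median scores were 0.77, 0.79, 0.91 and 0.74, and the shares that overlapped both replicates were 51.8%, 55.8%, 57.0% and 51.7%. Chained regions were thus wider (2382 to 2457 bp by class) and more often in both lists, with scores that did not rise steadily with the length of the chain. With X regions split by score into 4 equal groups, 52.1% of the lowest and 73.5% of the highest group had a neighbour within 2 kb. The 430 regions of the highest group covered 42.0% of the marked sequence. The median distance from one of them to the nearest other of the same group, on either side, was 6426 bp. In the lowest group that distance was 12897 bp. The Spearman rho of score and distance to the nearest region was -0.16 on X and -0.15 to -0.12 on the arms. Scores of direct neighbours showed no such relation. Over 672 pairs of adjacent X regions 2 kb or less apart, the Spearman rho of their scores was -0.018, and their scores differed by a median of 0.50. In replicate 1 the rho was -0.0027 over 398 pairs, and in replicate 2 it was -0.012 over 333 pairs. The arms were alike in the replicate set, with rho from -0.024 to 0.020 and median differences from 0.41 to 0.50. These pairs share a list and lie end to end, so the values are descriptive.

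The longest gap on X in the replicate-set list was 207.5 kb, from 7360432 to 7567952. Neither replicate had a region that lay wholly inside it, and 1 region of replicate 1 reached into it from its edge. A gap of 193.5 kb followed at 19859328 to 20052830, which held 1 region of replicate 2 (score 1.54). The next, of 156.3 kb at 2783210 to 2939475, held 1 region of replicate 1 (score 0.97). A gap of 147.9 kb at 7632736 to 7780639, held 3 regions of replicate 2 with scores up to 1.31. The last of the 5 longest, 131.6 kb at 5051176 to 5182774, held 1 region of replicate 2 (score 1.07). In the gap of 193.5 kb a region of replicate 1 also reached in from the edge. Of these 5 gaps, 4 thus held at least 1 whole region of a single replicate. Gaps of 50 kb or more made up 28.6% of X in the replicate set, inside the 22.5 to 34.2% of the arms, 39.7% in replicate 1 and 48.9% in replicate 2. On the arms replicate 2 left 22.9 to 39.0% of the length in such gaps and replicate 1 left 33.0 to 44.5%. X was thus the only one of the 5 arms in which replicate 2 left the larger share of sequence in long gaps. Regions reached close to both ends of the assembled X, with 13.1 kb before the first region and 6.27 kb after the last.

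Counts of regions were uneven along X. In 224 windows of 100 kb the mean was 7.67 regions and the variance 22.5, a ratio of 2.94, where a ratio of 1 would describe independent placement at an even rate. The ratio ran from 2.23 to 2.55 on the arms. In replicate 1 it was 2.57 on X, below the 2.75 of 2L, and in replicate 2 it was 2.72, above every arm (1.89 to 2.56). The fullest 100 kb window, at 1900001 to 2000000, held 21 regions that covered 51.7% of it. Windows at 16500001 to 16600000 and at 13200001 to 13300000 held 20 and 19 regions. The most covered window was another one, at 19500001 to 19600000, where 14 regions covered 69.0% of the sequence in the replicate set, 60.6% in replicate 1 and 40.8% in replicate 2. At the other extreme, 4 windows held no region midpoint, beginning at 2800001, 7400001, 12100001 and 19900001, and neither replicate covered any of their sequence.

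Richer and poorer stretches followed each other along X. In 22 windows of 1 Mb it had a median of 22.6% and ran from 13.5% to 29.9%, with an SD of 5.48 percentage points over windows, against 5.55 to 7.24 points on the arms. The most covered window was that from 15 to 16 Mb, with 29.9% in the replicate set, 23.3% in replicate 1 and 23.1% in replicate 2. Close behind were the window from 11 to 12 Mb, with 29.4%, 24.0% and 18.6%, and that from 6 to 7 Mb, with 29.4%, 24.3% and 19.6%. The least covered windows were those from 4 to 5 Mb with 13.5%, from 3 to 4 Mb with 14.1% and from 20 to 21 Mb with 14.3%. In replicate 1 these 3 windows had 11.1%, 13.1% and 11.7%, and in replicate 2 they had 10.8%, 8.51% and 7.87%. Each of the 3 most covered windows exceeded each of the 3 least covered in both replicates. The windows were picked by the replicate-set list, which comes from the same samples, so this order is not independent support.

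Over longer stretches the density of regions was lowest toward the centromere. It was 69.4 regions per Mb in the first 5 Mb, 79.0 from 5 to 10 Mb, 83.2 from 10 to 15 Mb and 89.4 from 15 to 20 Mb, and 47.5 in the last 2.42 Mb. The median score changed little over the same stretches, from 0.69 to 0.74, as did the median width, from 1977 to 2196 bp. Covered share over the 22 windows followed the number of regions (Spearman rho 0.90) more closely than their median width (0.40) or median score (0.50). The windows are descriptive points of 1 chromosome in the same lists, and covered share contains the number of regions by construction.

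**Figure D2:**
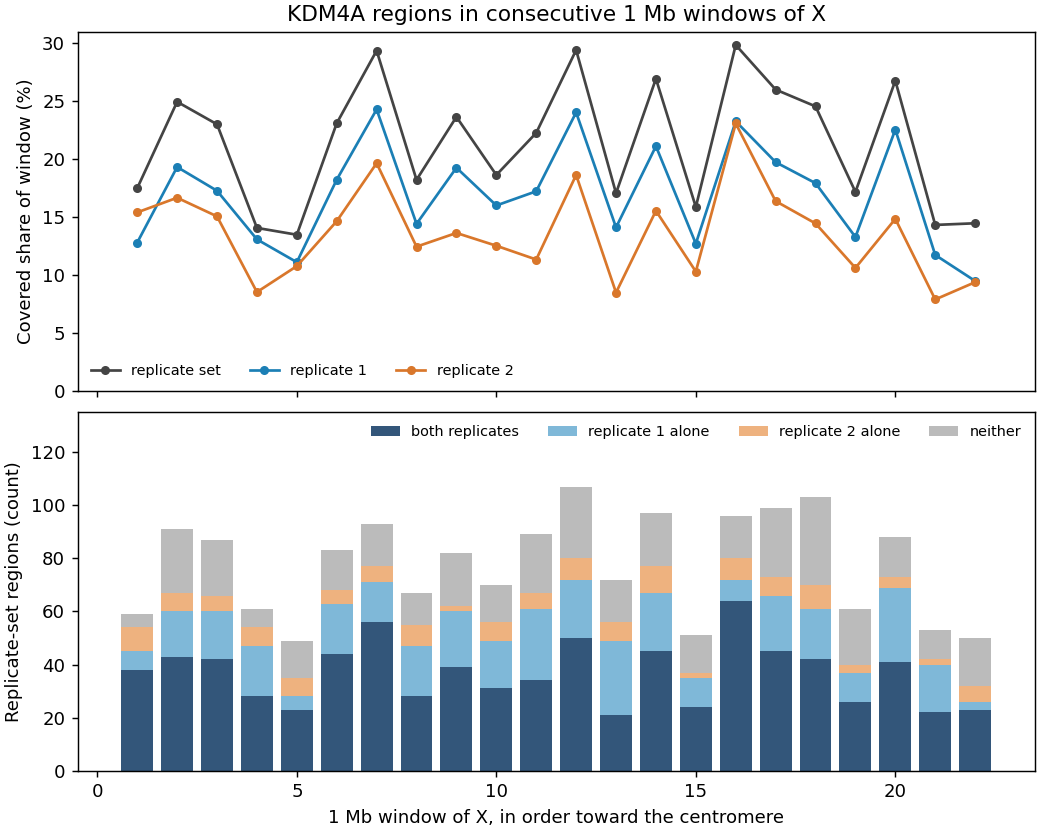
Top, covered share (percent) of each consecutive 1 Mb window of X, in order toward the centromere, in the list of the replicate set and of each replicate. Bottom, number of replicate-set regions with their midpoint in each window, coloured by the replicate lists they overlap. Covered share runs from 13.5% to 29.9% in the replicate set, and replicate 1 lies above replicate 2 in 21 of 22 windows.

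The replicates traced similar profiles of X, with a difference in height that varied between windows. The covered share of the 22 windows correlated between replicates with a Spearman rho of 0.84, below the 0.93 to 0.97 of the arms, and the points of a pair share their position. Replicate 1 covered more than replicate 2 in 21 of 22 windows of X, by a median of 3.48 percentage points. The exception was the window at the tip of X, where replicate 1 covered 12.8% and replicate 2 15.4%. The largest difference, 7.72 points, was between 19 and 20 Mb. The arms went the other way. Replicate 1 covered more in 1 of 23 windows of 2L, 0 of 21 of 2R, 8 of 25 of 3L and 3 of 28 of 3R, and the median differences were between -1.45 and -3.52 points. X took 19.6% of all regions of replicate 1 and 15.3% of those of replicate 2.

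**Figure D3:**
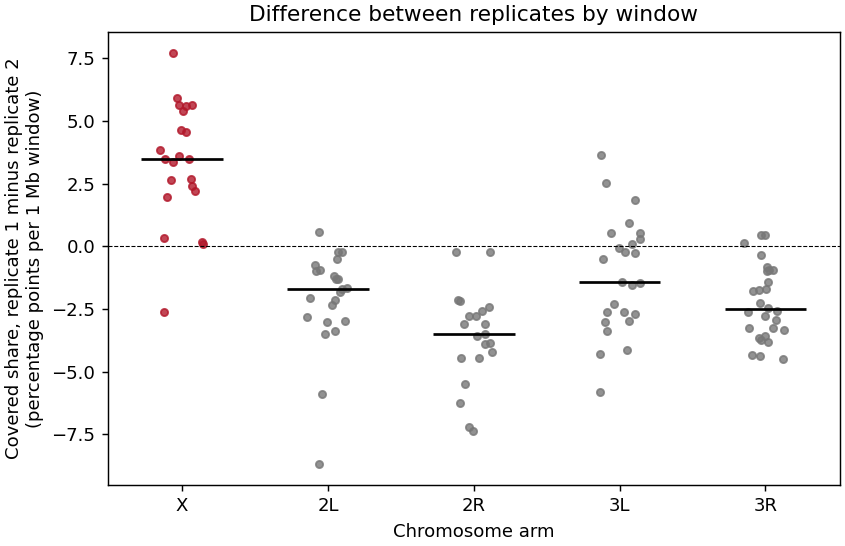
Covered share in replicate 1 minus that in replicate 2 (percentage points) for each 1 Mb window of X and of the 4 large autosomal arms, with 1 point per window, spread sideways for visibility, and the median as a line. The points of X lie above 0 in 21 of 22 windows, with a median of 3.48, and the medians of the arms lie below 0.

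Scores of matched regions were higher in replicate 1 on X and, by less, on the arms. On X 698 regions of replicate 1 overlapped exactly 1 region of replicate 2 and the reverse, with a median score of 1.51 in replicate 1 and 1.20 in replicate 2. Replicate 1 was the higher in 501 of the 698 pairs (71.8%), and the median difference was 0.25 (quartiles -0.047 and 0.53). On the arms the median difference ran from 0.030 to 0.065, and replicate 1 was the higher in 53.5 to 59.0% of pairs. As percentile ranks within each whole list, the median difference was 1.52 points on X and between -2.43 and -0.49 points on the arms. The replicate 1 region was the wider in 69.8% of X pairs and in 49.1 to 58.8% of pairs on the arms. Scores of the X pairs correlated between replicates with a Spearman rho of 0.66, against 0.70 to 0.77 on the arms, as a description over pairs.

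Replicate support was lower on X than on the arms. Among all 8653 regions of the replicate-set list, 52.4% overlapped a region of each replicate by at least 1 bp. On X these were 811 of 1720 regions, or 47.2% (95% Wilson interval 44.8 to 49.5%), and on the arms the share ran from 53.1% on 3L to 56.9% on 2L. The 811 regions held 69.3% of the covered sequence of X. Another 378 X regions (22.0%) overlapped replicate 1 alone and 139 (8.08%) overlapped replicate 2 alone. On the arms these shares were 12.8 to 16.6% and 13.5 to 15.3%. The remaining 392 X regions (22.8%) overlapped neither replicate, against 14.4 to 16.7% on the arms. The replicate-set list was derived from the same samples, so overlap with a replicate is not independent evidence for a region.

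Over all scores together, the shortfall was in replicate 2. A region of replicate 1 was present at 69.1% of the X regions and at 68.3 to 70.3% of those of the arms. A region of replicate 2 was present at 55.2% of the X regions and at 66.7 to 72.2% of those of the arms. In the other direction, 80 of the 1126 X regions of replicate 2 (7.10%) lay outside the replicate-set list, against 17.5 to 18.4% on the arms. For replicate 1 the same shares were 4.37% on X and 2.13 to 2.55% on the arms.

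Support rose steeply with score, and the difference between X and the arms was in the weak and middle scores. Of X regions scoring below 0.5, 5.99% overlapped both replicates, against 17.9 to 20.5% on the arms. From 0.5 to 0.75 the share was 16.5% on X (106 of 642 regions) and 46.8 to 49.4% on the arms. From 0.75 to 1 it was 55.0% on X (132 of 240 regions, Wilson interval 48.7 to 61.2%) and 92.5 to 94.8% on the arms. From 1 to 1.5 it was 95.5% on X and 97.1 to 100% on the arms. Of the 284 X regions scoring 1.5 or more, 1 overlapped neither replicate and the others overlapped both. From 0.75 to 1, 27.1% of X regions overlapped neither replicate, against 3.79% on the 4 arms pooled. From 0.5 to 0.75 these shares were 38.6% and 25.2%, and below 0.5 they were 25.8% and 24.7%. At matched scores of 0.5 to 1 the shortfall on X was thus not confined to replicate 2. Since X scores were higher at each percentile examined, the same score stood lower in the ranking of X than in that of the arms. With X and the pooled arms each split into 4 equal groups by their own scores, the gap was smaller. Support from the lowest to the highest group was then 6.74%, 18.8%, 64.2% and 98.8% on X and 16.7%, 26.2%, 79.9% and 99.0% on the arms. An X region with a score of 0.75 to 1 was also narrower than its counterparts, with a median of 2252 bp against 3084 to 3378 bp on the arms. These limits of score were chosen after the data were seen.

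**Figure D4:**
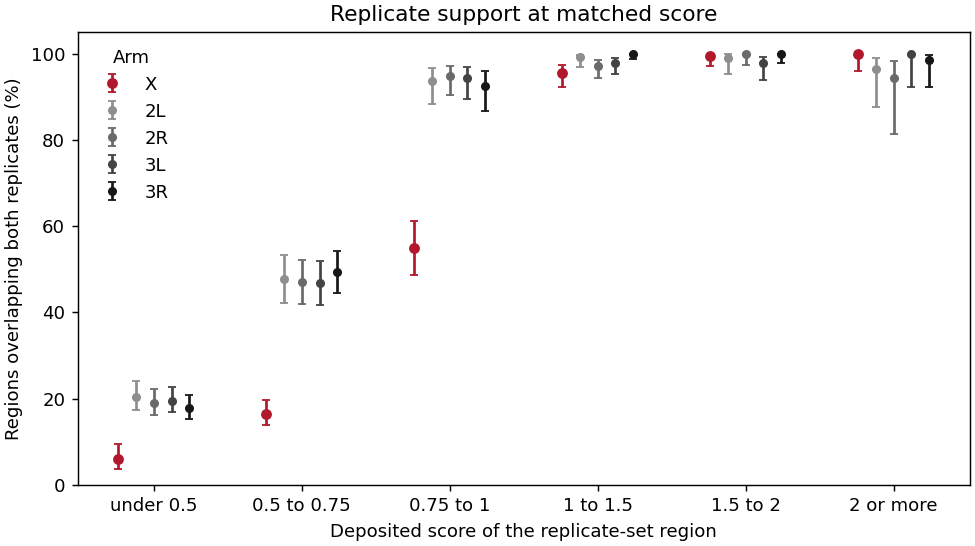
Share of replicate-set regions that overlapped a region of each replicate (percent, bars are 95% Wilson intervals that cover counting only), by the deposited score of the region, on X and on each large autosomal arm. From 0.75 to 1 the share is 55.0% on X and 92.5 to 94.8% on the arms, and above 1.5 X and the arms lie within 6 points of each other.

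Support also rose with width. In the narrowest of 4 equal groups, up to 1407 bp, 2 of 430 regions overlapped both replicates and 281 overlapped neither. In the widest, from 3295 bp, 410 of 430 overlapped both (95.3%). The pooled arms followed the same pattern, with 1.36% in both and 53.3% in neither in their narrowest group and 98.2% in both in their widest. Of the 392 X regions without a replicate, 234 (59.7%) were narrower than 1301 bp, the shortest region in either replicate list. The same held for 66.2% of the unsupported regions of the 4 arms. Regions narrower than this made up 19.5% of all X regions and 17.6% of all arm regions, and whether the lists used different limits of width is not stated.

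Regions of replicate 1 alone had low replicate-set scores, with a median of 0.55 and a median width of 1775 bp. The strongest was a flank of the highest-scored X region. It lay at 5421698 to 5423732, 1860 bp from that region, and scored 1.21 in the replicate set and 1.63 in replicate 1. The next were at 10810779 to 10811975 (score 1.14) and at 19602552 to 19603703 (score 1.11). Regions of replicate 2 alone had a median replicate-set score of 0.56, and none of the 139 reached 1 by that score. Their highest score, 0.89, was at 13159093 to 13161485. The next were 0.84 at 13077288 to 13079250 and 0.79 at 10492359 to 10494617. Scores in the replicates' own lists were higher. There, X regions of replicate 1 without overlap in replicate 2 had a median of 0.86, and 26.7% scored 1 or more. X regions of replicate 2 without overlap in replicate 1 had a median of 1.01, and 56.5% scored 1 or more. On the 4 arms pooled, those shares were 6.71% and 15.0%. Among regions with no replicate 10 scored 1 or more, led by a region of the least width in the list, at 4710458 to 4711458, with a score of 1.62. After it came 21531576 to 21532723 with 1.47 and 17440252 to 17441330 with 1.40. The first 2 of these stood alone, with no neighbour within 22 kb.

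Support also varied along X. It was highest between 15 and 16 Mb, where 64 of 96 regions (66.7%) overlapped both replicates, and in the first 1 Mb, where 38 of 59 did (64.4%). It was lowest between 12 and 13 Mb, where 21 of 72 regions (29.2%) overlapped both and 28 overlapped replicate 1 alone. The window with the highest support was thus also the most covered, but over the 22 windows the Spearman rho of support and covered share was 0.36. By stretches of 5 Mb, support was 50.1% from 0 to 5 Mb, 50.1% from 5 to 10 Mb, 41.8% from 10 to 15 Mb and 48.8% from 15 to 20 Mb, and 40.9% beyond. Regions of replicate 1 alone outnumbered those of replicate 2 alone in each of these stretches, most of all from 10 to 15 Mb with 110 against 33.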

How the data were processed

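KDM4A ChIP-seq of adult Oregon-R heads gave 2 ChIP samples with region lists and 2 inputs, each of which, per the labels, served for the list of the ChIP with the same number. The authors deposited lists of regions of significant enrichment with 1 score per region on a scale that is not stated. The submitters' processing notes list Bowtie 0.12.7. Coordinates are of FlyBase release 5, per the file headers, counted from 1. Not given in the sources used here are the caller, its threshold, and whether replicates were pooled for the replicate-set list. No list holds read counts, so depth is unknown.

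All further values were computed in Python 3.11.15 (pandas 2.3.3, scipy 1.17.1, numpy 2.4.6). X regions were all replicate-set rows on X except 1 region of depletion (16733265 to 16735119, score -0.0095). No regions overlapped within a list. Gaps run from the end of a region to the start of the next, chains join gaps of 2 kb or less, and a last window under 50% of its size was dropped. Support means an overlap of at least 1 bp. Intervals for shares are 95% Wilson intervals. No test across samples was run. The procedures recovered planted densities, gaps, chains and overlaps on simulated lists. Named regions were the 10 highest-scored and 5 widest X regions held by both replicates, the 3 highest-scored of each other class of support, the 5 fullest chains, the 5 longest gaps and the 3 most and least covered 1 Mb windows. Members, lists and this rule were chosen with earlier results of these data known. The extremes of 100 kb windows and of support by window, and the score bands, were chosen after their values were seen. No DNA sequence is shown, since no genome of release 5 was used here. Alternatives were other sets of regions, each replicate list alone, stricter overlap, and other distances and windows.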

Additional observations from a re-analysis of the deposited data

How the results depend on the processing

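Values of X depended on the set of regions. With regions held by both replicates there were 36.2 regions per Mb, a covered share of 14.6%, a median width of 3310 bp, a median score of 1.28, a median gap of 7200 bp, 44.0% of regions within 2 kb of a neighbour, a variance-to-mean ratio of 2.11 and an SD of 4.55 points over 1 Mb windows. The place of X then changed: its covered share fell below every arm (14.9 to 19.5%), its density below 2R and 3R (42.8 and 36.6 per Mb), and its ratio into the range of the arms (1.76 to 2.18). With the higher-scored 50% of the whole list the same values were 50.8 per Mb, 16.7%, 2653 bp, 1.00, 5010 bp, 50.3%, 2.50 and 4.97 points, and support by both replicates was 66.8% (92.3 to 94.4% on the arms), with replicate 1 alone exceeding replicate 2 alone by 6.76 points in place of 13.9. That cut kept 1139 of the 1720 X regions, against 653 of 1387 on 2L and 749 of 1632 on 2R. It kept 718 of 1654 on 3L and 840 of 1811 on 3R. The cut thus reached lower in the ranking of X, and these shares of support compare unlike ranks. Leaving out 1 replicate, which leaves the other's own list, gave ranges of 50.2 to 58.2 per Mb, 13.5 to 16.7%, 2239 to 2382 bp, 1.13 to 1.20, 4580 to 4772 bp, 50.1 to 51.3%, 2.57 to 2.72 and 3.90 to 4.43 points, the lower density and covered share without replicate 1. A linking distance of 1 kb gave 42.4% and of 5 kb 79.5% of regions near a neighbour. The ratio was 2.25 in 50 kb and 4.39 in 500 kb windows, and the SD of the profile was 7.62 points in 500 kb and 3.33 points in 2 Mb windows. Where at least 50% of a region had to be covered, support by both replicates was 43.1%. Among regions scoring 1 or more, a setting added after the data were seen, it was 97.5% and the excess of replicate 1 was 0.70 points. As percentile ranks, the median difference of paired X scores was 1.52 points. Smaller sets of regions are sparser by construction, and otherwise the cause was not tested. Leaving out the 2 Mb at the centromeric end moved density, covered share and gap by less than the spread between replicates. No paired analysis was possible because the inputs have no region list. The unknown depth limits what the difference between the replicates can show.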
